A study of Arabidopsis thaliana with 77 samples.

Results

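The calls described here are the single-base variant calls made in the library labelled rdr1 rdr2 rdr6 and in no episuppressor library. They were chosen by a rule on the calls themselves: a call on chromosomes 1 to 5 belongs to the set when its chromosome, position and called base are absent from the files of all 4 episuppressor lines, at any quality. The set holds 1057 of the 6724 calls of that library (15.7%), and the 5 libraries together hold 15725 different variants. The calls of the same library that all 4 lines also hold number 2883 and serve as the comparison. They are named common calls below, and the 1057 are named library-only calls.

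Genomic DNA came from rosette leaves of Arabidopsis thaliana plants of the Columbia ecotype, 4 weeks old and grown on soil without treatment. The library of interest has the genotype label rdr1 rdr2 rdr6. The lines 2-69, 2-20, 3-72 and 3-75 have the genotype label rdr1 rdr2 rdr6 ddm1, so the 3 rdr mutations are shared by all 5 libraries. Each genotype or line is 1 library, of the 77 samples in the series, and no value below has a replicate. The labels do not say how many plants a library holds. The library labelled rdr1 rdr2 rdr6 carried the DDM1 change of the lines in heterozygous form, which its label does not name, and it is called by its label for that reason.

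RDR1, RDR2 and RDR6 are RNA-dependent RNA polymerases, which copy RNA into the double-stranded precursors of small interfering RNAs. RDR2 acts in RNA-directed DNA methylation and RDR6 in post-transcriptional silencing, including that of transposons that have become active. DDM1 is a chromatin remodelling ATPase that maintains DNA methylation over transposons, which in this species are densest around the centromeres. A call in a sequenced genome can mark a base that differs from the reference in the plant, and it can also arise where reads of one copy of a repeated sequence are placed on another copy. Ethyl methanesulfonate, a mutagen widely used in Arabidopsis, mostly gives G/C to A/T changes.

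The sequences below show the kinds of call met in this library. Each is the TAIR10 reference of 31 bases, read 5′ to 3′ on the plus strand, in lower case with the called position in capitals. A change is written as the reference base, the chromosome position and the called base. The first sequence is the DDM1 site of G26652152A at chr5:26652137-26652167, a common call that is heterozygous here.
DDM1: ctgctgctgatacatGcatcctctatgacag
The next pair is shown because each sequence carries a library-only call to the base of the other. They lie in the nearby genes ARI10 (T13508897G, chr2:13508882-13508912) and ARI11 (G13515657T, chr2:13515642-13515672).
ARI10: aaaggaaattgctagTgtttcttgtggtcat
ARI11: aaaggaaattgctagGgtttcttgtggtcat
A second such pair lies in the receptor-like kinase genes CRK6 (T12123163C, chr4:12123148-12123178) and AT4G23160 (C12133209T, chr4:12133194-12133224).
CRK6: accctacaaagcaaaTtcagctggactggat
AT4G23160: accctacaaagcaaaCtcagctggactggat
The last 2 are high-quality library-only calls for which the called base, set alone in its reference window, was matched nowhere else: G3119592A (chr3:3119577-3119607) and T17571293C (chr5:17571278-17571308).
AT3G10114: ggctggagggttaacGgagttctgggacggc
AT5G43745: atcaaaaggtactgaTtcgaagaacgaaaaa

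Library-only calls were mostly heterozygous calls of low quality in which a minority of the reads carried the called base. Of the 1057, 1031 were given as heterozygous and 26 as homozygous (2.46%, Wilson 95% interval 1.68 to 3.58), against 1037 homozygous calls of 2883 among the common calls (36.0%, 34.2 to 37.7). The median quality, a phred-scaled score of the authors' caller that ran from 3.01 to 222, was 10.4 among library-only calls and 93 among common calls. The median depth was 26 reads against 51. The median read share of heterozygous calls, that is the percentage of high-quality reads with the called base, was 29.7% against 49.2%. Genotype, read share, depth and quality all bear on whether a call is made in a library, so these values describe the rule's outcome and were not tested. The intervals here and below cover counting error only.

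Read shares lay in a narrow band. The quartiles of the heterozygous library-only calls ran from 26.1% to 33.3%, and those of the heterozygous common calls from 39.2% to 61.1%. The lowest share listed was 21.7% in this library and between 21.6% and 21.8% in the lines, so the files hold no call below about that level. Of the heterozygous library-only calls, 118 (11.4%) had a share of 40% or more, against 1364 (73.9%) of the heterozygous common calls. At sites with at least 20 reads, the exact 95% interval of the share lay wholly below 50% for 472 of 784 heterozygous library-only calls (60.2%) and for 341 of 1815 heterozygous common calls (18.8%). The median share of library-only calls was lower at deeper sites, from 33.3% at 10 to 19 reads to 26.9% at 50 reads or more.

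**Figure D1:**
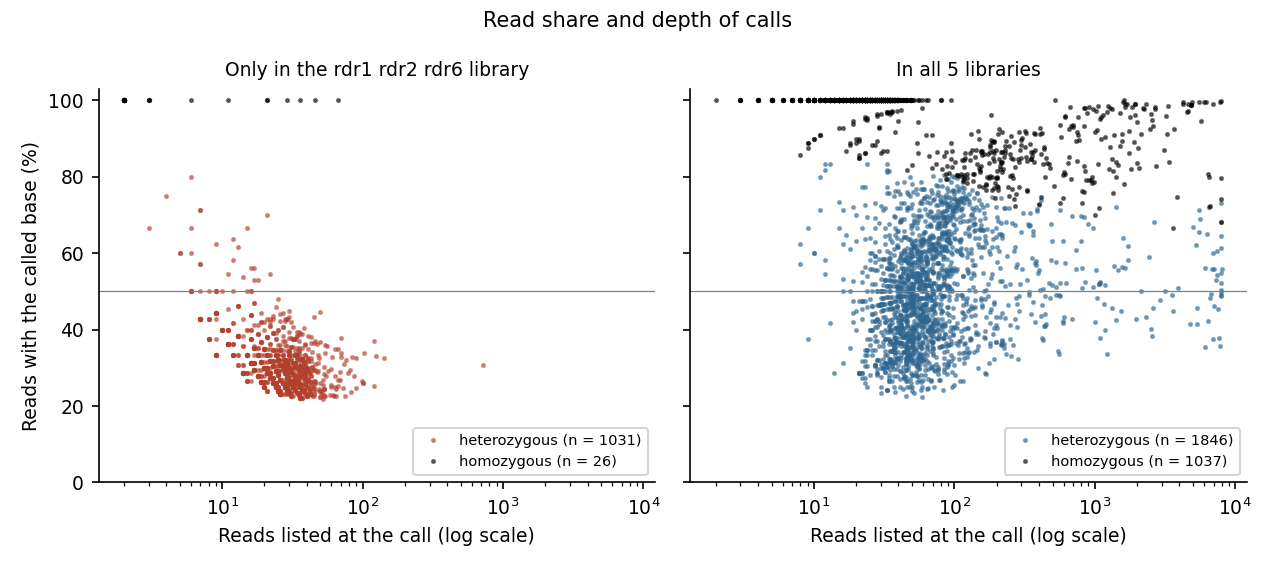
Percentage of reads with the called base (y axis) against the number of reads listed at the call (x axis, log scale), 1 point per call, with homozygous calls in black and a line at 50%. The 1031 heterozygous calls of the left panel have a median share of 29.7%, and the 1846 of the right panel a median of 49.2%.

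Calls shared with some of the lines stood between these sets. The median quality was 16.1 for the 962 calls shared with 1 line, 25 for the 835 shared with 2 lines and 39 for the 987 shared with 3 lines. The median share of heterozygous calls was 30%, 32.4% and 35.7% in the same order, and the homozygous percentage was 2.70%, 5.51% and 9.73%. Calls just outside the rule, shared with 1 line, were thus near the library-only calls in all 3 values. The files list called sites alone, so a line without a call at such a site may have held the reference base, too few reads or a signal under the caller's limit. Called sites had a median depth of 35 reads in this library, against 37, 24, 17 and 23 reads in 2-69, 2-20, 3-72 and 3-75. The part of depth in these differences was not tested.

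**Figure D2:**
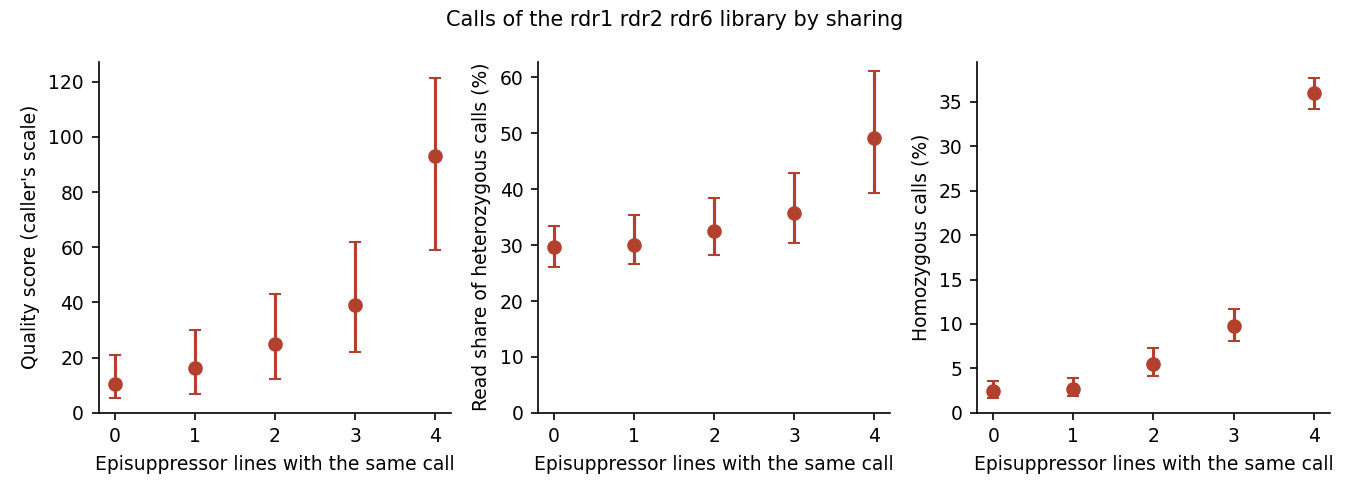
Quality score, read share of heterozygous calls and percentage of homozygous calls (y axes of the 3 panels) against the number of episuppressor lines that hold the same call (x axis). Points are medians with the quartiles as bars in the first 2 panels, and percentages with Wilson 95% intervals in the last; the median quality is 10.4 at 0 lines and 93 at 4 lines.

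The 26 homozygous library-only calls fell into 2 kinds. In 6 of them the file lists 2 called bases, and at all 6 positions each of the 4 lines lists the same first base, in homozygous form in all 4 lines at 5 positions. On chromosome 4, for example, A3873056G with the additional base T had 65 of 65 reads against the reference, and the lines list G alone there with 28 to 48 reads. These 6 are library-only calls through the second base listed and hold the 5 highest qualities of the whole set, between 147 and 194. The other 20 rested on 2 to 6 reads with the called base, 15 of them on 2 reads, and their highest quality was 26.1. No library-only call was both homozygous and of quality 50 or more once the calls with 2 bases were set aside.

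Calls that reached both a quality of 50 and a depth of 10 reads formed a class that held 42 library-only calls (3.97%), 5 of them calls with 2 bases, against 2309 common calls (80.1%). The 37 with 1 base were all heterozygous. The calls found in 1 line alone and in no other library numbered 968, 501, 594 and 444 in this class in 2-69, 2-20, 3-72 and 3-75. Those of the lines were G/C to A/T changes in 95% to 96.8% of cases, and the 42 library-only calls in 12 cases (28.6%, 17.2 to 43.6).

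The reference itself held the called base of most library-only calls at another place. For this measure the called base was set between its 15 reference bases on each side, and the 31 bases were looked up on both strands of the whole reference, organelles included. A match was found for 803 of the 1055 library-only calls with a complete window (76.1%, Wilson 95% interval 73.4 to 78.6). The 2 bases that were neither reference nor called gave a match in 105 of 2110 cases at the same sites (4.98%, 4.13 to 5.99). Common calls had a match in 71.5% (69.8 to 73.1). On the chromosome arms, more than 3 Mb from the centromeres, the values were 77.7% of 323 library-only calls (72.9 to 81.9) and 49.9% of 493 common calls (45.5 to 54.3). Around the centromeres they were 75.4% and 75.9%. The sets on the arms differ in genotype, with 6 of the 323 library-only calls homozygous and 335 of the 493 common calls. Among heterozygous calls of all regions, the matched percentages were 76.7% and 72.7%. The part of genotype in the difference on the arms was not tested. A window that keeps the reference base at a neighbouring call cannot match a copy that differs at both. For this reason the windows were looked up again with the library's other calls within 15 bases set as well. Of 125 library-only calls with such a neighbour, 21 matched alone and 105 with the neighbours set, and 7 of 250 windows with a base neither reference nor called did. Matched either way were 889 of 1055 library-only calls (84.3%, 81.9 to 86.3) and 76.3% of common calls (74.7 to 77.8), and on the arms 85.1% (80.8 to 88.6) and 53.3% (48.9 to 57.7). Both measures were added after the data were seen and are given as descriptions. Below, a match is of the called base alone unless neighbours are named.

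Calls of this library shared with 1, 2 and 3 lines had matches in 77.3%, 76.9% and 70.1% of cases. A high matched percentage was thus not particular to library-only calls. Calls made in 1 line alone had fewer matches, 25.6% to 45.0% over the 4 lines at any quality and 2.99% to 5.18% in the class of quality 50 and 10 reads. The 42 library-only calls of that class had matches in 69.0% (54.0 to 80.9). Among library-only calls with a match, 245 had it at 1 place, 339 at 2 to 10 places and 219 at more than 10 places. All 245 single matches lay on chromosomes 1 to 5. Of the 452 single matches of common calls, 147 lay in the organelle genomes.

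**Figure D3:**
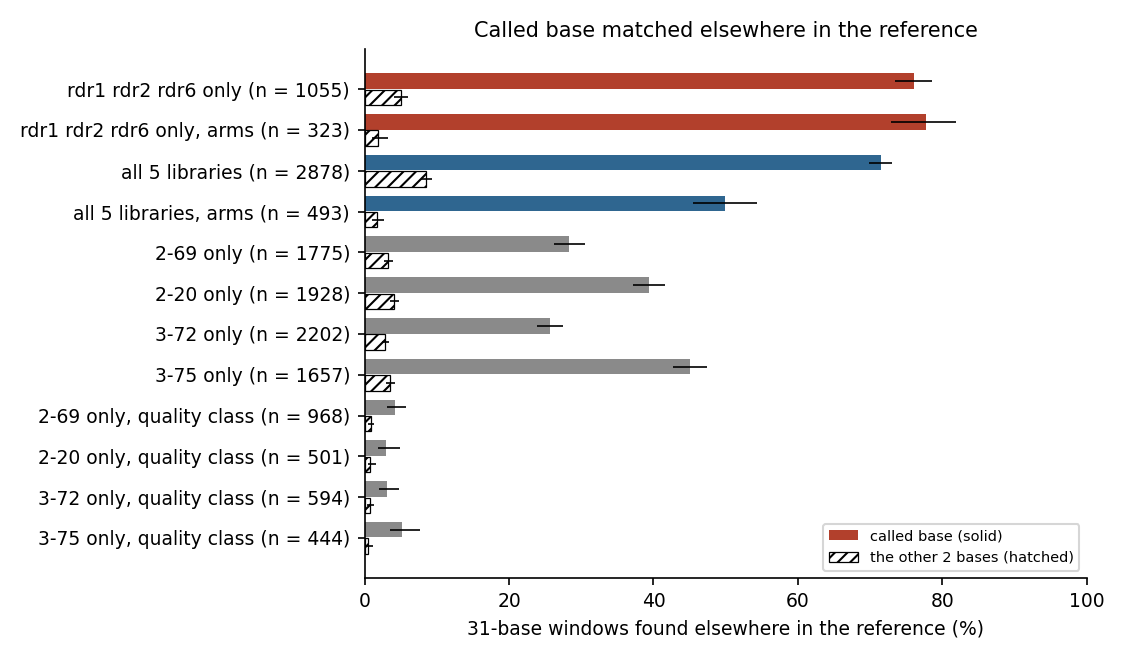
Percentage of 31-base windows found elsewhere in the reference (x axis) with the called base at the centre (solid bars) or with either of the 2 remaining bases (hatched bars), for sets of calls (y axis, with n), with Wilson 95% intervals. The bar of the library-only calls is at 76.1%, and those of the calls of single lines in the class of quality 50 and 10 reads are between 2.99% and 5.18%.

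In a minority of the single matches both copies carried a call, each to the base of the other. Calls matched at several places were not examined for this. Of the 245 library-only calls with a single match, 134 (54.7%) had it on the same chromosome, at a median distance of 17671 bases, and 88 within 100 kb. At 70 of the 245 matched places (28.6%, 23.3 to 34.5) the same library listed a call to the reference base of the first site. The same held for 5 of 305 common calls with a single match on these chromosomes (1.64%, 0.702 to 3.78). The called places were library-only calls in 19 cases, calls shared with 1 to 3 lines in 48 and common calls in 3. Pairs in which both calls were library-only numbered 12. On the arms the percentages were 32.5% of 123 library-only calls and 2.44% of 82 common calls. The sets differ in genotype, and the part of genotype in this difference was not tested. Calls shared with 1 to 3 lines were not used as first sites, though 48 of the 70 called places were such calls. The pattern is thus not shown to be particular to library-only calls.

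The ARI10 and ARI11 pair printed above shows this pattern in coding sequence of nearby genes. Both encode proteins of the RING/U-box superfamily, to which many ubiquitin ligases belong. In ARI10 (AT2G31760, chromosome 2, 13508493 to 13510390), 11 of 33 reads carried T13508897G (33.3%, exact 95% interval 18.0 to 51.8), which changes the protein as S135R, at a quality of 36.0. In ARI11 (AT2G31780, 13515199 to 13517413), 9 of 39 reads carried G13515657T (23.1%, 11.1 to 39.3), which gives R153S, at a quality of 4.77. The sites are 6760 bases apart. In the second pair, CRK6 (AT4G23140, chromosome 4, 12121369 to 12124564), a cysteine-rich receptor-like kinase, had 9 of 28 reads for T12123163C (I443T). Its match in AT4G23160, 10046 bases away, had 8 of 28 reads for C12133209T. The site in AT4G23160 is in its untranslated region. All 4 read shares were under 50%. These genes were chosen after their values were seen.

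Library-only calls lay at adjacent positions in 9 pairs, with equal numbers of called reads within each pair in 9 of 9. The counts are given per site, so whether the same reads carried both changes is not known. Calls adjacent to another call of their own set were 18 of 1057 library-only calls (1.70%) and 68 of 2883 common calls (2.36%). A larger set offers more such neighbours, so these percentages do not show in which set adjacency is more frequent for its size. At 10108587 and 10108588 of chromosome 3, where the reference is GA, 11 of 33 reads carried A at the first position. At the second, 11 of 33 carried G. At 23311249 and 23311250 of chromosome 5, 8 of 25 reads carried each of the 2 changes. This pair lies in AT5G57565, a protein kinase superfamily gene, where the second change alone gives Q96K. Neither base was matched elsewhere alone, and both set together were matched at 1 place.

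The substitution spectrum of library-only calls was compared with that of common calls by two-sided Fisher's exact tests on the numbers of calls. The 7 features compared were adjusted together by the Benjamini-Hochberg method, and since calls of 1 library are linked, the p-values describe sets of calls and not genotypes. G/C to A/T changes were 25.6% of library-only calls (271 of 1057, 23.1 to 28.4) and 18.4% of common calls (531 of 2883, 17.0 to 19.9; adjusted p = 2.5e-06). In calls of this library shared with 1, 2 and 3 lines, G/C to A/T changes were 23.3%, 23.2% and 21.4%, between those sets. Transitions were 61.0% of library-only calls against 53.1% of common calls (adjusted p = 1.51e-05). The most frequent class in both sets was the opposite transition, A/T to G/C, with 35.4% and 34.7%. Each of the 4 transversion classes made up between 8.23% and 12.7% of library-only calls. Among calls whose called base was not matched elsewhere, the G/C to A/T percentage was 29.8% against 30.2%, with the sign reversed and an adjusted p of 0.942. Without matches of either kind it was 33.7% of 166 against 32.9% of 683 (adjusted p = 0.997). For heterozygous calls alone the transition percentages were 61.7% and 59.0% (adjusted p = 0.248).

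Library-only calls were concentrated around the centromeres, though less so than common calls. Within 3 Mb of the approximate centromere positions lay 734 of 1057 library-only calls (69.4%, 66.6 to 72.1) and 2390 of 2883 common calls (82.9%, 81.5 to 84.2; adjusted p = 1.32e-18, Fisher's exact test). These regions are 25.2% of the sequence. Of the calls shared with 1, 2 and 3 lines, 74.2%, 76.6% and 81.1% lay there. The density was 24.5 library-only calls per Mb there and 3.62 per Mb on the arms, against 79.7 and 5.53 common calls per Mb. In the first Mb from the centromere the densities were 38.9 and 191 per Mb, and between 2 and 3 Mb they were 15.2 and 14.5. At a quality of 20 or more the difference in location was -13.1 percentage points (adjusted p = 8.51e-07), and where the reference window occurs once it was -17.2 (adjusted p = 3.01e-13). Among heterozygous calls alone it was -22.2 percentage points, with 69.3% against 91.4% (adjusted p = 4.17e-50). It did not pass the test in other subsets, where it was -0.425 percentage points among calls of quality 50 and 10 reads (adjusted p = 1) and 1.51 percentage points among calls whose called base was not matched elsewhere (adjusted p = 0.942). Without matches of either kind it was 4.76 percentage points (adjusted p = 0.627).

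**Figure D4:**
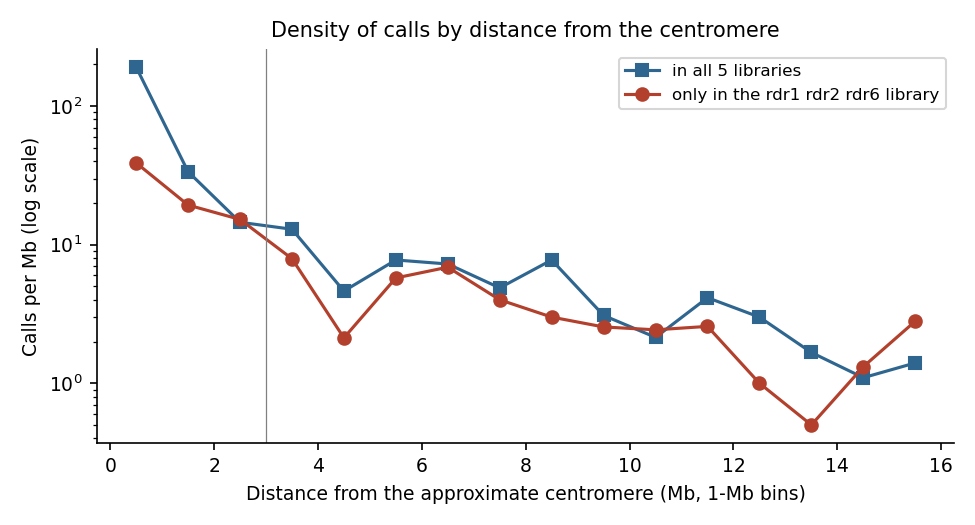
Calls per Mb (y axis, log scale) in bins of 1 Mb by distance from the approximate centromere (x axis), over both arms of the 5 chromosomes, with a line at 3 Mb. The densities in the first bin are 38.9 for library-only calls and 191 for common calls, and between 2 and 3 Mb they are 15.2 and 14.5.

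Chromosome 1 held the most library-only calls, 329, followed by chromosome 5 with 254, chromosome 4 with 165, chromosome 3 with 160 and chromosome 2 with 149. The median over 240 windows of 500 kb was 2 library-only calls, and 74 windows held none. The 3 fullest windows were 15000001 to 15500000 on chromosome 1 with 72, 14500001 to 15000000 on the same chromosome with 46, and 11500001 to 12000000 on chromosome 5 with 45. The common calls in these windows numbered 185, 45 and 345, so the second window held about as many library-only calls as common calls. Of the 72, 46 and 45 calls, 52, 28 and 34 had the called base matched elsewhere.

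Tight clusters were rarer among library-only calls. Clusters of 3 calls within 100 bases, counted over all calls of the library, held 48 library-only calls (4.54%) and 537 common calls (18.6%; adjusted p = 8.44e-33, Fisher's exact test). Calls of a cluster are marked together and are not independent units, so this p-value is a description of the sets and no measure of evidence. Another library-only call lay within 100 bases of 184 of the 1057 (17.4%). For common calls, another common call lay within that distance of 1195 of the 2883 (41.4%). Neighbours were counted within each set here, so the larger number of common calls bears on this difference.

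Most library-only calls lay outside coding sequence. Intergenic sequence held 600 (56.8%), annotated pseudogenes 351 (33.2%, 30.4 to 36.1), introns 28 and untranslated regions 15. Pseudogenes held 24.5% of common calls (22.9 to 26.1), and on the arms the percentages were 33.1% and 21.3%. Coding sequence held 57 library-only calls (5.39%) and 211 common calls (7.32%), with an adjusted p of 0.0453 that rose above 0.05 in most of the alternative settings run. With line 3-72 or line 3-75 left out of the rule, the difference of -1.93 percentage points became -0.999 and -0.851, with adjusted p-values of 0.249 and 0.33. The percentage in annotated genes, which counts pseudogenes as genes, was 43.2% against 40.8% (adjusted p = 0.166). It was 49.3% against 41.1% (adjusted p = 0.0174) at a quality of 20 or more. Introns held 2.65% against 4.86%, untranslated regions 1.42% against 2.12% and noncoding genes 0.568% against 1.94%. Of coding sequence and these parts, only pseudogenes thus held a larger percentage of library-only than of common calls. Among coding calls, missense changes outnumbered synonymous ones 36 to 20 in the library-only set, a ratio of 1.80, and 156 to 51 among common calls, a ratio of 3.06 (adjusted p = 0.147).

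Protein-altering changes numbered 37 in 34 genes, made up of 36 missense changes and 1 lost start codon (M1R in AT5G36340). No stop codon was gained and no splice site was changed. All 37 calls were heterozygous, their read shares ran from 23.1% to 62.5% with a median of 29%, and their highest quality was 36.0, so none was in the class of quality 50 and 10 reads. The called base was matched elsewhere for 26 of the 37, and for 17 of the 24 on the arms. With neighbouring calls set as well, 31 of the 37 were matched one way or the other. Further examples, chosen after their values were seen, had their match in another gene or only with a neighbouring call set. Whether their matched places carried a call is not given here. Not all matches lay in genes, and that of F153L in AT1G34440 lay outside any annotated gene. In AT1G66640, of a family of proteins with leucine-rich repeats, T24857827G (F105V, 10 of 36 reads) and G24857855T (R114L, 8 of 33 reads) had their single matches in AT1G66320, and A368T in AT5G10370, which encodes a helicase and zinc finger protein (9 of 28 reads), had its match in AT4G01020, a gene with the same product name. In AT5G46520, which encodes an immune receptor of the TIR-NB-LRR kind, V1078L (9 of 31 reads) and N1080K (9 of 33 reads) had no match alone, and both set together had 1.

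Over all 27444 coding genes, 77 carried a library-only call (0.281%), so lists of this size could hold few or none. Of 34 RNA silencing genes, 1 had such a call, AGO3 (AT1G31290, chromosome 1, 11188120 to 11192585), which encodes an Argonaute protein, the class of protein that binds small RNAs. In AGO3, 6 of 22 reads carried G11188498A (27.3%, exact interval 10.7 to 50.2), which gives R69H at a quality of 10.4. The called base was matched at 2 further places, both inside AGO3 and the nearer one 57 bases away. Of 28 genes of DNA methylation and chromatin and of 18 genes of the centromere and cohesin, 0 had a library-only call. RDR2 (AT4G11130, 6780449 to 6784632 of chromosome 4) and RDR1 (AT1G14790, 5093961 to 5098270 of chromosome 1) held 0 calls in each of the 5 libraries. The common call R269* in RDR6 (AT3G49500) was homozygous here, with 23 of 23 reads.

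Only 3 library-only calls passed the strictest class, which took the class of quality 50 and 10 reads and asked further for 1 called base, a reference window found once in the genome and the called base matched nowhere else. The corresponding calls of single lines numbered 825, 453, 527 and 384 in 2-69, 2-20, 3-72 and 3-75, and 98.0% to 99.4% of those were G/C to A/T changes. G3119592A lies in AT3G10114, annotated as a glycosyl hydrolase pseudogene (chromosome 3, 3119491 to 3120025), and had 12 of 28 reads (42.9%, exact interval 24.5 to 62.8) at a quality of 65. T17571293C lies in an intron of AT5G43745, annotated as an ion channel gene (chromosome 5, 17569147 to 17575051), and had 12 of 32 reads (37.5%, 21.1 to 56.3) at a quality of 56. A17039476G lies in the pseudogene AT1G45080 (chromosome 1, 17039235 to 17040180) and had 13 of 39 reads (33.3%, 19.1 to 50.2) at a quality of 51. All 3 were heterozygous with intervals that reach 50%, and 1 of the 3 was a G/C to A/T change. With the neighbouring call of the library set as well, G3119592A was matched at 1 place and A17039476G at 8, while T17571293C had no neighbouring call and no match. The same step took the calls of single lines to 825, 453, 526 and 381. With a window of 21 bases the called base of A17039476G was matched at 8 places, and those of the other two at none.

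Around DDM1 the library-only calls were heterozygous calls of low quality. DDM1 (AT5G66750) lies near the end of chromosome 5, at 26648897 to 26653191, and within 5 Mb of its changed base the library had 52 calls. Of these, 10 were library-only, 22 common and 20 shared with 1 to 3 lines. All 10 library-only calls were heterozygous, with read shares from 23.8% to 54.5% and a median of 31%. Their highest quality was 29, for the adjacent pair in AT5G57565, and 6 had the called base matched elsewhere, or 8 with neighbouring calls set. The nearest were A26484557G and T26484242C, 0.168 Mb from DDM1, with 3 of 9 and 5 of 13 reads, and called bases matched at 12 and 15 places. G26111539T at 0.541 Mb had 6 of 11 reads (54.5%) and no match. T22830993C and C22833157T both lie in the pseudogene AT5G56367, with 8 of 27 and 5 of 21 reads. C22002564T in the pseudogene AT5G54203 had 7 of 27 reads, and T23659023C and A23775111G between genes each had 6 of 20. G/C to A/T changes were 2 of the 10. Calls of this region shared with 1, 2 and 3 lines were heterozygous in 10 of 10, 5 of 6 and 4 of 4 cases. Their median read shares were 28.4%, 31.9% and 38.7%. Heterozygous calls of low read share were thus not particular to the library-only set here.

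The common calls of the same region were of another kind. In this library 20 of the 22 were homozygous, and 20 of the 22 were G/C to A/T changes. The 2 heterozygous ones were G26652152A in DDM1 itself and A23774850G, with 20 of 37 reads. At G26652152A, which changes the protein as C615Y, 9 of 19 reads carried the change here (47.4%, exact interval 24.4 to 71.1), while the 4 lines had it in 23 of 23, 14 of 14, 10 of 10 and 7 of 7 reads. The nearest other common calls, G25793477A and G25522289A, were homozygous here with 22 of 22 and 49 of 49 reads.

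**Figure D5:**
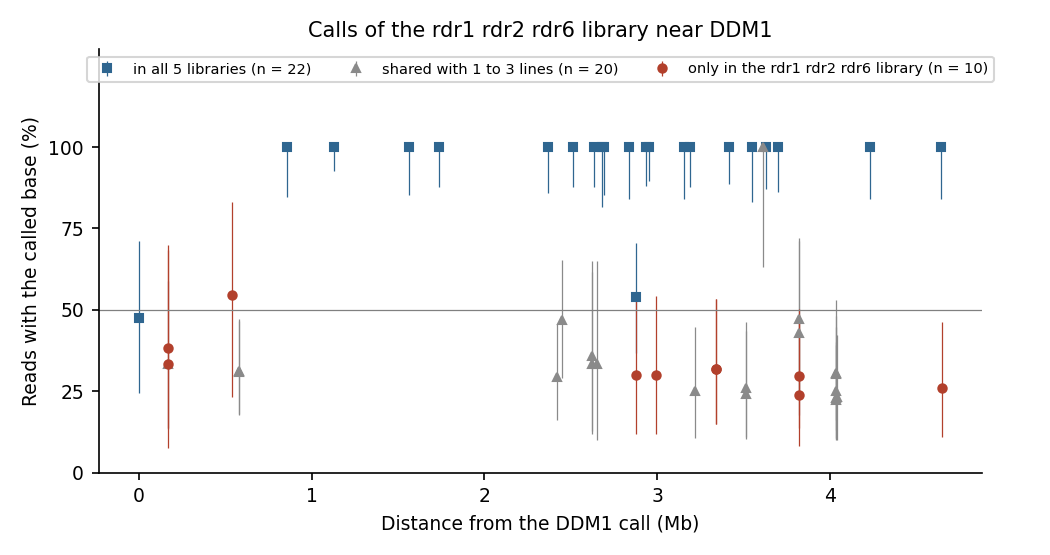
Percentage of reads with the called base (y axis, with exact 95% intervals) against distance from the changed base of DDM1 in Mb (x axis), for the 52 calls of the library within 5 Mb. The 10 library-only calls lie between 23.8% and 54.5%, and of the 22 common calls all but the DDM1 site at 47.4% and 1 more heterozygous site are homozygous.

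Sites that were heterozygous in this library and homozygous in all 4 lines were rare. They numbered 10 of the 1846 heterozygous common calls (0.542%), and DDM1 was the only one of them on chromosome 5. The other 9 had read shares between 60.0% and 77.1% in this library, and the exact interval lay above 50% for 8 of them. At all 9 some reads of the lines still carried the reference base, while at DDM1 none did. The called base was matched elsewhere for 8 of the 9, and 6 lay on chromosome 2 between 3295141 and 3411986. Each of these 6 had its single match in the organelle genomes. Of the rest, A14200076G on chromosome 3 had 7919 reads listed. Of the 1037 common calls that were homozygous in this library, 918 (88.5%) were homozygous in all 5 libraries. The genotype at these sites was used to choose them, so the counts are a description.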

How the data were processed

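Per the labels, the genomic DNA gave paired HiSeq2000 reads of 101 nt. For each library the authors deposited a list of single-base calls (VCF 4.1), made, per the file headers, with samtools 0.1.19-44428cd against TAIR10. The submitters' processing notes name Bowtie, SAMtools and Bismark without versions; how calls were filtered is not given in the sources used here. The quality score is the authors' phred-scaled value, and depth and high-quality read counts are the authors' deposited values. All calls had a mapping quality of 20, and none fell on a differing reference base of the assembly used for annotation (TAIR10.1, RefSeq).

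The set of calls and the gene lists were chosen with earlier results of these data known. Calls were compared by chromosome, position and called base, and calls with 2 bases were classed by the first. Effects were translated on the longest coding sequence. Centromeres were taken at 15, 3.6, 14, 4 and 12 Mb of chromosomes 1 to 5. The 7 features went through Fisher's exact test (two-sided), adjusted together by Benjamini-Hochberg. Read shares have exact and other shares Wilson 95% intervals, which cover counting error only, and depth limits both. Named genes were the mutated genes of the labels (DDM1 and the RDR genes), genes of the lists with a library-only call in coding sequence or introns, genes with a homozygous or high-quality protein-altering one (none was found), up to 10 calls near DDM1 and the 3 fullest windows of 500 kb; others are named as chosen after their values were seen. Alternatives were limits on quality, depth and clusters, the key, the lines required, genotype, region widths and, added after the data were seen, repeat-based subsets. The scripts were tested on simulated data. Computations used Python 3.11.15, numpy 2.4.6, pandas 2.3.3, scipy 1.17.1, statsmodels 0.14.6, matplotlib 3.10.9 and Biopython 1.88.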

Additional observations from a re-analysis of the deposited data

Results flagged for a closer look

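Mitochondrial calls were not part of the comparison. The library labelled rdr1 rdr2 rdr6 listed 144 of them, and 1 was in none of the 4 lines. It was homozygous, with 31 reads listed and a quality of 159.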

How the results depend on the processing

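No paired analysis was possible because each genotype or line is 1 library. Differences below are library-only minus common calls, in percentage points, with p-values adjusted over the features, and the cause of a change was not tested. Those for genes count annotated pseudogenes as genes. The 1057 calls became 294 at a quality of 20, 42 at quality 50 and 10 reads, 1599 against 2-69 and 2-20 alone, 26 as homozygous calls, 252 without calls matched elsewhere and 513 where the reference window occurs once. In the class of quality 50 and 10 reads, the homozygous share was 11.9% and the matched share 69.0%, and the differences did not pass the test: 10.7 for G/C to A/T, 5.09 for transitions, -0.425 for the pericentromere, -8.36 for coding sequence and -12.9 for clusters. Among homozygous calls the matched share was 52%, and the differences were 7.83 for G/C to A/T, -7.81 for transitions, 9.23 for the pericentromere, -12.1 for coding sequence, -20.5 for genes and 2.27 for clusters, with no missense value since none of them was coding. Among calls not matched elsewhere, the homozygous share was 4.76%, and the differences were -0.445 for G/C to A/T, 1.57 for transitions, 1.51 for the pericentromere and -4.37 for coding sequence. Among the 166 calls matched neither alone nor with neighbouring calls set, the homozygous share was 6.02%, and the differences were 0.792 for G/C to A/T, -3.21 for transitions, 4.76 for the pericentromere, -2.67 for genes and 3.90 for missense changes. Where the reference window occurs once, the homozygous share was 3.7%, the matched share 80.7%, and the differences 3.54 for G/C to A/T and -1.32 for coding sequence. Among heterozygous calls they were 2.64 for transitions, 0.870 for coding sequence and 4.58 for genes, the last past the threshold (adjusted p = 0.0309). With 10 or more reads, the homozygous share was 0.711%, and the differences were -1.90 for coding sequence and 4.58 for genes (adjusted p = 0.0188). The difference in genes also passed at a quality of 20 (8.19) and against 2-69 and 2-20 alone (3.83), where that for coding sequence was 0.0724. The coding difference was lost with depth up to 3 times the median (-0.724), outside clusters (-1.87), by position alone (-1.89) and without calls of 2 bases (-1.90). The matched share was 81.7% with 21 bases.

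With 1 line left out of the rule, the calls numbered 1218 to 1347 and the homozygous share was 2.23% to 2.95%. The differences ran from 5.51 to 7.84 for G/C to A/T, 6.01 to 8.27 for transitions, -13.1 to -12.1 for the pericentromere, -1.98 to -0.851 for coding sequence, 0.919 to 3.39 for genes, -13.5 to -13.3 for clusters and -10.4 to -7.91 for missense changes, and the matched share was 75.9% to 76.8%. Near DDM1 there were 3 library-only calls within 2 Mb, 16 within 8 Mb and 0 of quality 50 with 10 reads. The DDM1 site left the count of sites heterozygous here alone, giving 0, when all 5 libraries had to reach that class, since 3-75 has 7 reads there. Depth limits single read shares: 784 of the 1031 heterozygous library-only calls had at least 20 reads.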
